A study of Homo sapiens with 8 samples.

Results

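F-box proteins are the interchangeable substrate receptors of SCF ubiquitin ligases, in which the cullin CUL1 holds the RING protein RBX1 at one end and the adaptor SKP1 at the other. The F-box binds SKP1, and the rest of the protein binds the substrate that is to be ubiquitinated. FBXL proteins carry leucine-rich repeats, FBXW proteins carry WD40 repeats, and FBXO proteins carry other domains or none that is recognised. The genes described here were all protein-coding genes whose symbol begins with FBXO, FBXL or FBXW followed by a digit. There were 62 of them among 58735 genes of the count table, of which 19951 were protein-coding. 36 were FBXO, 17 FBXL and 9 FBXW genes.

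RNA came from PANC-1, an established human line of pancreatic ductal adenocarcinoma, labelled as wild type in every sample. Cells received either a scrambled siRNA (siSCR) or a siRNA against BARD1 (siBARD1) and were harvested 48 h later. Each group had 4 libraries, numbered 1, 3, 4 and 5. BARD1 is the RING partner of BRCA1 in a ubiquitin ligase of homologous recombination repair, and the design asks what changes when it is silenced. The labels do not say how many different siRNA sequences were used, nor whether each replicate was a culture of its own. The p-values below therefore speak of the spread among these 8 libraries alone, and part of that spread may be technical.

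Library totals ran from 17816547 to 28590710 assigned reads, and the 2 groups' totals did not differ detectably (p = 0.286 in an exact permutation test, two-sided, in which 0.0286 is the lowest p that can be reached). BARD1 itself was below every siSCR library in every siBARD1 library, with 17.3 to 22.2 CPM (a gene's reads relative to the TMM-scaled library total) against 2.47 to 3.34 CPM. On the second principal component siSCR replicate 1 stood apart from the other 7 libraries, at 31.5 against -12.5 to 5.59. The ductal keratins KRT8, KRT18 and KRT19 were abundant, at siSCR means of 1066 to 3189 CPM, while KRT7 was at 2.06 CPM and CDH1 at 5.83 CPM. The abundant keratins were lower in siBARD1, where the summed CPM of 6 ductal epithelial markers was 2771 to 4097 against 4818 to 6780 in siSCR. That sum is nearly all KRT8, KRT18 and KRT19. These 3 of the 6 markers fell and none rose, where 20.0% of all genes tested were called lower. KRT7, EPCAM and CDH1 did not pass, with log2 differences of -0.52, 0.14 and 0.06. The part of the keratin shift in the changes below was not tested. Markers of acinar, leukocyte and endothelial cells summed to under 1 CPM in every library. Fibroblast markers summed to 3.19 to 4.68 CPM in siSCR and 4.39 to 8.0 CPM in siBARD1, with LUM and DCN at 0 in all 8 libraries. Of the 2 fibroblast markers tested COL3A1 rose, by 0.79 on the log2 scale (adjusted p = 0.00898), and PDGFRB did not pass, and the part of this in the changes below was not tested.

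55 of the 62 F-box genes passed the filter on low counts and were tested. 12 rose, 12 fell and 31 did not pass an adjusted p of 0.05 in edgeR's quasi-likelihood test. The 24 called genes are 43.6% of those tested, beside 38.9% of all 15287 genes tested and 43.5% of the 12751 protein-coding ones, so the share called is that of the background and is not a result about F-box genes. The median log2 fold change (siBARD1 over siSCR) was 0.05 over the 55 genes and 0.0 over all genes tested. With total-count or upper-quartile scaling, 17 F-box genes were called higher and 10 lower. Under total-count scaling, 59.3% of all calls were higher, against 48.6% with the TMM scaling used otherwise, and under upper-quartile scaling 57.4%. In bulk RNA, a change in the cells present and a change in RNA per cell cannot be told apart.

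Most of the changes were small. 18 of the 24 called genes changed by less than 1.5-fold, and the median size of the called changes was 0.35 on the log2 scale, beside 0.36 for all called genes. 3 changed at least 2-fold: FBXO7 and FBXO27 fell and FBXL2 rose. Of all genes tested, 2.09% were called and changed at least 2-fold, and of protein-coding ones 1.94%. In 12 tested F-box genes every siBARD1 library lay above every siSCR library and in 11 every one lay below, and such separation was found in 36.1% of all genes tested and 40.4% of protein-coding ones. Of the 24 called genes, 22 were separated in this way, and FBXO44 and FBXL14 overlapped.

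**Figure D1:**
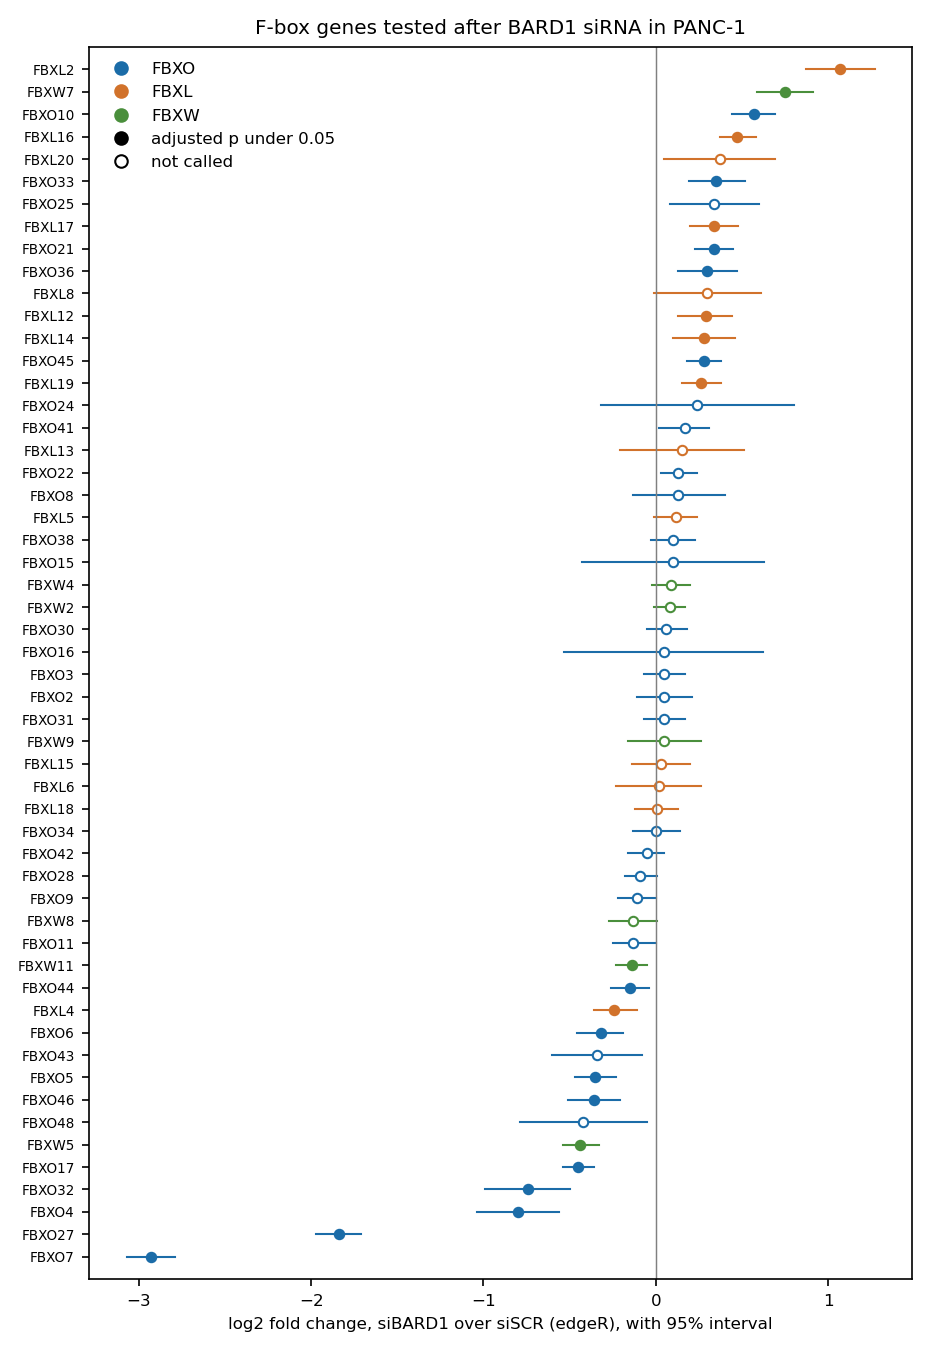
Log2 fold change of CPM, siBARD1 over siSCR, of 54 of the 55 F-box genes tested (x axis), with 95% intervals as lines and 1 gene per row in order of change. Colours give the FBXO, FBXL and FBXW classes and filled points passed an adjusted p of 0.05. FBXO7 at -2.93 and FBXO27 at -1.84 lie apart from the rest, which run from -0.80 to 1.07.

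FBXO7 is the F-box gene mutated in an inherited parkinsonian-pyramidal syndrome. Its protein binds the proteasome regulator PI31 (gene PSMF1) and the kinase CDK6. The gene (ENSG00000100225) lies at chr22:32474676-32498829 on the plus strand of GRCh38. FBXO7 was at 85.0, 86.4, 80.2 and 76.3 CPM in siSCR replicates 1, 3, 4 and 5. In siBARD1 it was at 12.1, 11.1, 10.2 and 9.79 CPM. The groups were far apart, with the highest siBARD1 library below every siSCR library by several fold. The log2 fold change was -2.93 (SE 0.07, edgeR adjusted p = 5.84e-14), which leaves 13.1% of the siSCR level. Only 1 of all 15287 genes tested had a lower log2 fold change than FBXO7. BARD1, the target of the siRNA, was left at 15.4% of its siSCR level (log2 fold change -2.69, SE 0.12, edgeR adjusted p = 7.41e-11).

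FBXO27 (ENSG00000161243, chr19:38990714-39032785, minus strand) encodes a receptor for glycoproteins. It was the most abundant F-box transcript per length, with a mean of 148.4 FPKM over the 8 libraries. FPKM are fragments scaled to gene length and to an adjusted library total. FBXO27 was at 724.9, 637.1, 617.6 and 663.1 CPM in siSCR replicates 1, 3, 4 and 5, and at 203.0, 180.0, 164.2 and 192.4 CPM in those of siBARD1. All siBARD1 libraries were lower by a wide margin. The log2 fold change of CPM was -1.84 (SE 0.07, edgeR adjusted p = 1.4e-11), a 3.58-fold drop.

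The 7-base sequence CTACCAG was searched on the sense strand of 1 GENCODE 29 transcript per gene (whichever had the longest 3′ UTR in the annotation), which need not be the form these cells express. The sequence came out of an earlier search over the fold changes of these same libraries, so its company with falling genes is a description and no independent support. It is shown here because FBXO7, FBXO27 and FBXO4, the 3 F-box genes that fell most, all hold it. The siRNA's own sequence is not given in the sources used here. BARD1 holds it once in its coding sequence, in exon 7 at chr2:214752485-214752491, and once in its 3′ UTR, in exon 11 at chr2:214727351-214727357 (both minus strand). FBXO7 holds it in coding exon 5 at chr22:32487795-32487801 and in coding exon 7 at chr22:32493113-32493119 (plus strand). FBXO27 holds it in its 3′ UTR, in exon 6 at chr19:39025237-39025243 (minus strand), and FBXO4 in coding exon 4 at chr5:41934015-41934021 (plus strand). The lines below give each copy in the sense of the transcript, 5′ to 3′, with 11 bases on each side and CTACCAG in capitals (GENCODE 29, GRCh38).
BARD1 coding sequence: cgctattgctgCTACCAGagaagaatgaa
FBXO7 exon 5: gattgcagctgCTACCAGaatcttttatt
FBXO7 exon 7: aagcactgaacCTACCAGatgtatttggg
BARD1 3′ UTR: cagtttgataaCTACCAGaatagaatatc
FBXO27 3′ UTR: ggttctagaaaCTACCAGaagaagcttct
FBXO4 exon 4: cttatattcaaCTACCAGaaaggaaagag
The unbroken run shared with BARD1 was 12 bases between FBXO7 exon 5 and the BARD1 coding copy. It was 11 bases between FBXO27 or FBXO4 and the BARD1 3′ UTR copy, and 10 bases between FBXO7 exon 5 and that same copy. No other F-box copy shared a run of more than 9 bases with either BARD1 copy. Every run includes the 7 bases searched for, and copies in genes outside the F-box set were not compared. Any link between run length and the falls was not tested.

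The searched transcript held the sequence in 21 of the 55 tested F-box genes (38.2%). It was held by 24.3% of the 12722 tested protein-coding transcripts searched. Of the 21, 8 fell and 3 rose, and their log2 fold changes had a median of -0.09. Of the 34 without it, 4 fell, 9 rose and the median was 0.13. Those 34 include FBXL18, which did not pass and holds it in 3 of its 4 coding transcripts but not in the one searched. Over all tested protein-coding transcripts, 1070 of 3092 with the sequence fell and 562 rose, with a median of -0.08, and 1784 of 9630 without it fell and 2123 rose, with a median of 0.02. Transcripts with it were longer, with a median of 4425 against 2970 bases over all those searched and 4055 against 3483 over the F-box genes. The part of length in this was not tested.

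The sequence and the direction did not go together in every gene. Among the fallers, FBXO17 and FBXW5 hold it in the coding sequence, FBXO6 and FBXO46 in the 3′ UTR and FBXL4 in both. FBXO32, FBXO5, FBXO44 and FBXW11 fell and their searched transcripts do not hold it. FBXO10, with 2 coding copies, and FBXO21 and FBXO36, with a copy each in the 3′ UTR, rose. FBXO10 holds the sequence in 1 of its 2 coding transcripts, FBXO21 in 1 of 5 and FBXO36 in 3 of 3. Among the fallers with it, FBXO46 holds it in 1 of 3, FBXO27 in 3 of 5 and FBXO7 in 3 of 4. The other fallers with it hold it in all of their coding transcripts.

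**Figure D2:**
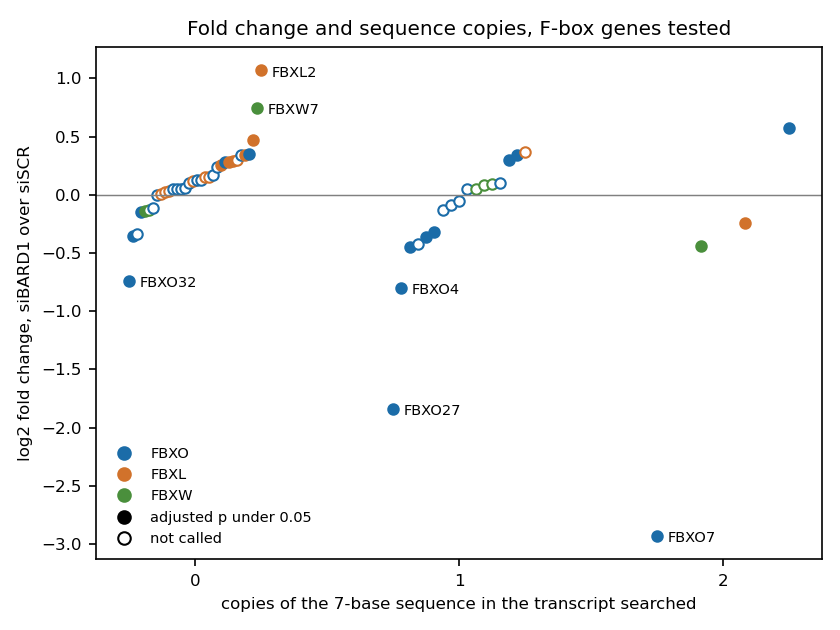
Log2 fold change of CPM, siBARD1 over siSCR (y axis), of the 55 tested F-box genes by the number of copies of the 7-base sequence in the transcript searched (x axis, points spread sideways in order of change). Filled points passed an adjusted p of 0.05. FBXO7 has 2 copies and FBXO27 and FBXO4 have 1, while FBXO10 has 2 copies and rose by 0.57.

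The other large falls were in genes at lower levels. FBXO4, whose protein has been reported to target cyclin D1 and the telomere protein TRF1, was at 7.56, 6.32, 7.86 and 6.87 CPM in siSCR replicates 1, 3, 4 and 5 and at 4.0, 4.15, 4.13 and 4.13 CPM in those of siBARD1. The groups did not overlap, and the siBARD1 libraries were nearly equal. Its log2 fold change was -0.80 (SE 0.12, edgeR adjusted p = 7.02e-05). FBXO32, known as atrogin-1 from muscle wasting, was at 37.7, 29.9, 33.7 and 31.2 CPM in siSCR and at 26.2, 17.5, 17 and 19.1 CPM in siBARD1, in the same order of replicates. Replicate 1 was the highest in both groups, and all siBARD1 libraries lay below all siSCR libraries. Its log2 fold change was -0.74 (SE 0.13, edgeR adjusted p = 5.55e-04).

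FBXW5, a WD40 receptor that targets the centriole assembly factor SASS6, was at 77.2, 78.6, 77.5 and 81.2 CPM in siSCR replicates 1, 3, 4 and 5 and at 59.3, 58.9, 60.5 and 53.7 CPM in those of siBARD1. Each siBARD1 library was lower than each siSCR library. Its log2 fold change was -0.44 (SE 0.05, edgeR adjusted p = 6.09e-06). FBXO5, or EMI1, inhibits the anaphase-promoting complex, another cell cycle ligase. FBXO5 was at 46.4, 52.0, 50.5 and 49.2 CPM in siSCR and at 37.6, 40.7, 40.5 and 35.8 CPM in siBARD1, without overlap. Its log2 fold change was -0.35 (SE 0.06, edgeR adjusted p = 2.6e-04).

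FBXW11 is β-TrCP2, a receptor for phosphorylated β-catenin and IκB, and ranked behind FBXO27 and FBXO17 by mean FPKM, at 50.4. It was at 286.6, 301.6, 304.6 and 294.2 CPM in siSCR replicates 1, 3, 4 and 5 and at 260.0, 281.1, 270.8 and 263.8 CPM in those of siBARD1. The groups were separate but close, and the log2 fold change was -0.14 (SE 0.04, edgeR adjusted p = 0.0189). That call was lost with total-count scaling (adjusted p = 0.0944) and upper-quartile scaling (0.0716), and in 4 other alternatives. FBXO46 fell by 0.36 and FBXL4, a mitochondrial protein whose loss depletes mitochondrial DNA, by 0.24 on the log2 scale. FBXO46 shares 14.4% of its exonic bases with AC007191.1 on the same strand.

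5 of the 62 genes share the FBA domain, with which FBXO2, FBXO6 and FBXO27 bind N-linked glycans of glycoproteins. FBXO17 and FBXO44 are their relatives. They were grouped after their values were seen, so no test of the group is given. 4 of the 5 fell and FBXO2 did not pass, with a median log2 fold change of -0.32. Of all genes tested 20.0% were called lower, and of protein-coding ones 22.4%. The median over all genes tested was 0.0. Under total-count or upper-quartile scaling 3 fell, since the call for FBXO44 was lost. They lie in 2 clusters on GRCh38. FBXO17 and FBXO27 are 14803 bases apart on the minus strand of chromosome 19. FBXO2, FBXO44 and FBXO6 are neighbours on chromosome 1, where the spans of FBXO2 and FBXO44 overlap by 1411 bases on opposite strands and FBXO6 begins 796 bases beyond FBXO44. About 7.8% of the exonic bases of FBXO2 and 7.6% of those of FBXO44 are shared with each other. FBXO27 shares 10.4% with AC010605.1 on the opposite strand, and FBXO17 shares 8.3% with AC011455.2 on its own strand. Since the strandedness of the counts is not stated, reads in stretches shared between strands cannot be assigned to one gene. Counts in the stretch FBXO17 shares depend on how shared reads were treated.

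FBXO17 was the second most abundant F-box transcript per length, at 73.9 mean FPKM. It was at 412.0, 440.3, 434.0 and 418.3 CPM in siSCR replicates 1, 3, 4 and 5 and at 304.7, 324.0, 303.0 and 313.3 CPM in those of siBARD1. Every siBARD1 library was lower, and replicate 3 was the highest in both groups. Its log2 fold change was -0.45 (SE 0.04, edgeR adjusted p = 7.68e-07), smaller than that of its neighbour FBXO27.

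FBXO6 was at 46.1 ± 4.44 CPM (SD, n = 4) in siSCR and 36.9 ± 0.35 CPM (n = 4) in siBARD1, with a log2 fold change of -0.32. FBXO44 was at 61.3 ± 3.54 and 55.2 ± 2.05 CPM with overlapping libraries, and its log2 fold change of -0.15 (edgeR adjusted p = 0.0421) lost its call in 9 of 19 alternatives. FBXO2 was at 122.8 ± 15.7 and 126.9 ± 8.86 CPM, and its log2 difference of 0.05 had a 95% interval of -0.11 to 0.21. That interval holds neither the change of FBXO17 nor that of FBXO6.

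**Figure D3:**
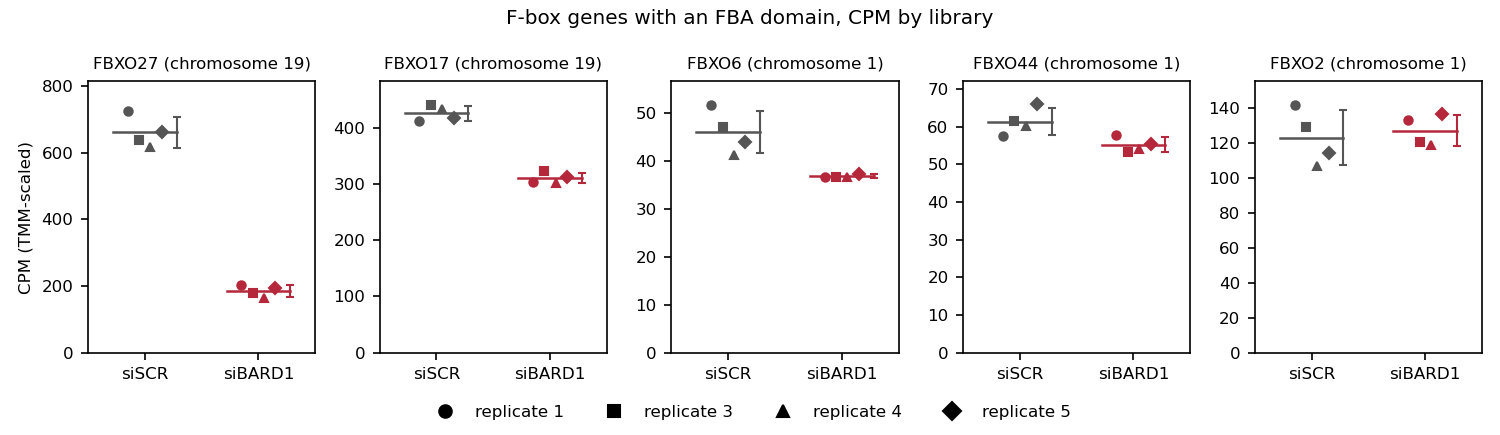
CPM (y axis, from 0) of the 5 genes among the 62 with an FBA domain, in each of the 4 siSCR and 4 siBARD1 libraries. Marker shapes give replicate numbers, horizontal lines the group mean and bars its SD. FBXO27 falls from 617.6 to 724.9 CPM to 164.2 to 203.0 CPM, FBXO17 and FBXO6 fall without overlap, and FBXO44 and FBXO2 overlap between groups.

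FBXL2 rose most. Its protein is anchored to membranes by a lipid tail and targets the p85β subunit of PI3-kinase. FBXL2 was at 7.48, 6.15, 8.0 and 7.02 CPM in siSCR replicates 1, 3, 4 and 5 and at 15.1, 16.1, 14.2 and 15 CPM in those of siBARD1. The lowest siBARD1 library was well above the highest siSCR library. The log2 fold change was 1.07 (SE 0.10, edgeR adjusted p = 3.98e-07).

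FBXW7, a tumour suppressor, targets cyclin E, MYC, JUN, NOTCH1 and MCL1. It was at 14.7, 14.6, 14.6 and 14.8 CPM in siSCR replicates 1, 3, 4 and 5 and at 23.5, 28.6, 23.4 and 23.4 CPM in those of siBARD1. The siSCR libraries were almost equal, siBARD1 replicate 3 was above the other 3, and the groups were separate. The log2 fold change was 0.75 (SE 0.08, edgeR adjusted p = 2.03e-06).

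FBXO10, reported to target the apoptosis inhibitor BCL2, was at 18.9, 18.3, 19.6 and 19.9 CPM in siSCR replicates 1, 3, 4 and 5 and at 28.3, 29.6, 28.2 and 27.4 CPM in those of siBARD1. The groups did not overlap, and the log2 fold change was 0.57 (SE 0.07, edgeR adjusted p = 4.42e-06). It shares 48.0% of its exonic bases with AL513165.2, a gene annotated in the same orientation, so its counts depend on how shared reads were treated. FBXL16, a leucine-rich repeat protein, was at 60.1, 56.2, 52.4 and 55.5 CPM in siSCR and at 78.2, 78.1, 78.3 and 76.6 CPM in siBARD1. Every siBARD1 library was higher, and the log2 fold change was 0.47 (SE 0.05, edgeR adjusted p = 2.54e-06).

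FBXO33, reported to target the RNA-binding protein YBX1, was at 10.8, 12.1, 11.1 and 11 CPM in siSCR replicates 1, 3, 4 and 5 and at 14.6, 14.0, 15.1 and 13.6 CPM in those of siBARD1. FBXO21, reported to target EID1, was at 63.9, 54.5, 57.8 and 59.1 CPM and at 77.5, 73.9, 74.9 and 72.4 CPM in the same libraries. In both genes all siBARD1 libraries were the higher ones. The log2 fold changes were 0.35 (SE 0.09, edgeR adjusted p = 0.00339) for FBXO33 and 0.34 (SE 0.06, adjusted p = 1.27e-04) for FBXO21.

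**Figure D4:**
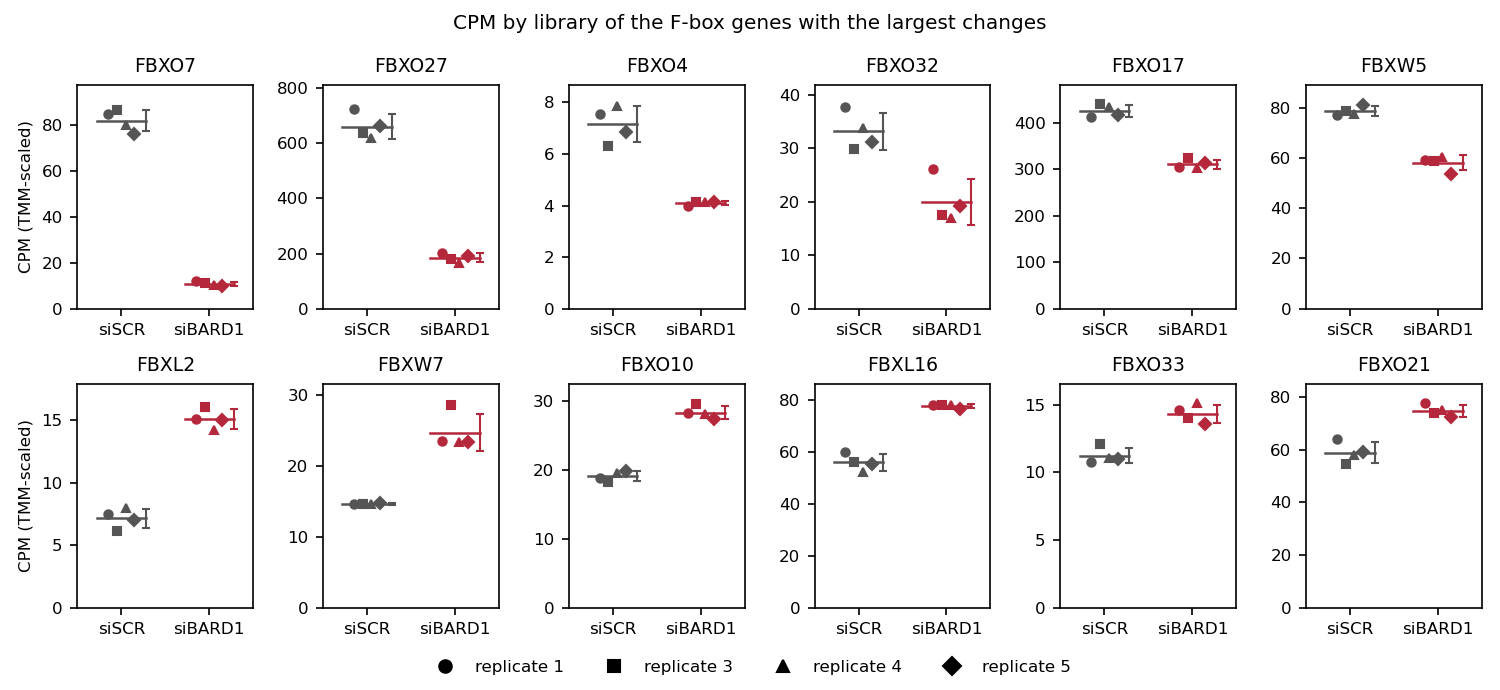
CPM (y axes, each from 0) by library of the 6 F-box genes with the largest called falls (top) and the 6 with the largest called rises (bottom), with 4 siSCR and 4 siBARD1 libraries each, marker shapes for replicate numbers, lines for group means and bars for their SD. No pair of groups overlaps, and the top row runs from a drop to 13.1% of siSCR in FBXO7 to a drop to 73.9% in FBXW5.

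6 more genes rose by 0.26 to 0.34 on the log2 scale. FBXL17, which checks the pairing of BTB-domain proteins, rose by 0.34 and FBXO36 by 0.30. FBXL12 rose by 0.29, FBXL14, a receptor for the transcription factor Snail, by 0.28, and FBXO45, the partner of the ligase MYCBP2, by 0.28. FBXL19, which binds unmethylated CpG islands through a zinc finger, rose by 0.26. The call of FBXL14 was lost when any of 3 libraries was left out: the adjusted p was 0.057 and 0.0535 without replicate 3 or 4 of siSCR and 0.102 without replicate 4 of siBARD1.

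By class, 6 of 15 tested FBXL genes rose and 1 fell, with a median log2 fold change of 0.26. Of 33 FBXO genes 5 rose and 9 fell, and of 7 FBXW genes 1 rose and 2 fell, each with a median of 0.05. The difference between the classes was not tested. Higher calls made up 18.9% and lower calls 20.0% of all genes tested. With total-count scaling 7 FBXL genes rose and 1 fell, 8 FBXO genes rose and 8 fell, and 2 FBXW genes rose and 1 fell.

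The 31 genes that did not pass had log2 differences from -0.42 (FBXO48) to 0.37 (FBXL20), and 14 of them lay within 0.1 of 0. 7 had an unadjusted p under 0.05. FBXL5, the receptor that senses iron and targets the iron regulatory protein IRP2 (gene IREB2), was at 36.9, 33.4, 33.7 and 34.7 CPM in siSCR replicates 1, 3, 4 and 5 and at 37.1, 35.3, 38.0 and 40.3 CPM in those of siBARD1. The groups overlapped, and the log2 difference of 0.12 (edgeR adjusted p = 0.155) had a 95% interval of -0.01 to 0.24. FBXO11, a receptor for BCL6, differed by -0.13 (adjusted p = 0.127).

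7 of the 62 genes were below the filter. FBXO39, FBXO40 and FBXL7 had 0 counts in all 8 libraries. FBXW10, FBXW12 and FBXO47 had at most 2 counts in a library, and FBXL22 had 6 to 23 counts. No change in these genes was detectable at this depth.

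Levels per length ranged widely. 13 F-box genes had a mean above 10 FPKM over the 8 libraries, 35 lay between 1 and 10 FPKM and 14 were under 1 FPKM. Of the 13 most abundant, 7 fell and 3 rose. Of protein-coding genes tested, 22.4% were called lower and 21.1% higher, and of all genes tested 20.0% and 18.9%. Those shares cover genes of every level, and genes of like level were not compared. Among the 7, FBXO44 and FBXW11 lost their call in 9 and 6 of 19 alternatives. The FPKM values of all 62 genes summed to 737.4 ± 22.2 (SD, n = 4) in siSCR and 537.5 ± 6.16 (n = 4) in siBARD1. FBXO27 alone made up 31.4% ± 1.34 of that sum in siSCR and 12.1% ± 0.957 in siBARD1. Without FBXO27 the sums were 505.4 ± 7.57 and 472.8 ± 2.88 FPKM. Without FBXO27, FBXO17 and FBXO7 they were 410.4 ± 7.77 and 409.3 ± 1.78 FPKM. All 3 of these genes were called lower, so leaving them out narrows the gap by construction. The remaining sums do not show whether the other genes changed, since rises and falls cancel in a sum. FBXO17 kept the same share, 11.6%, in both groups.

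**Figure D5:**
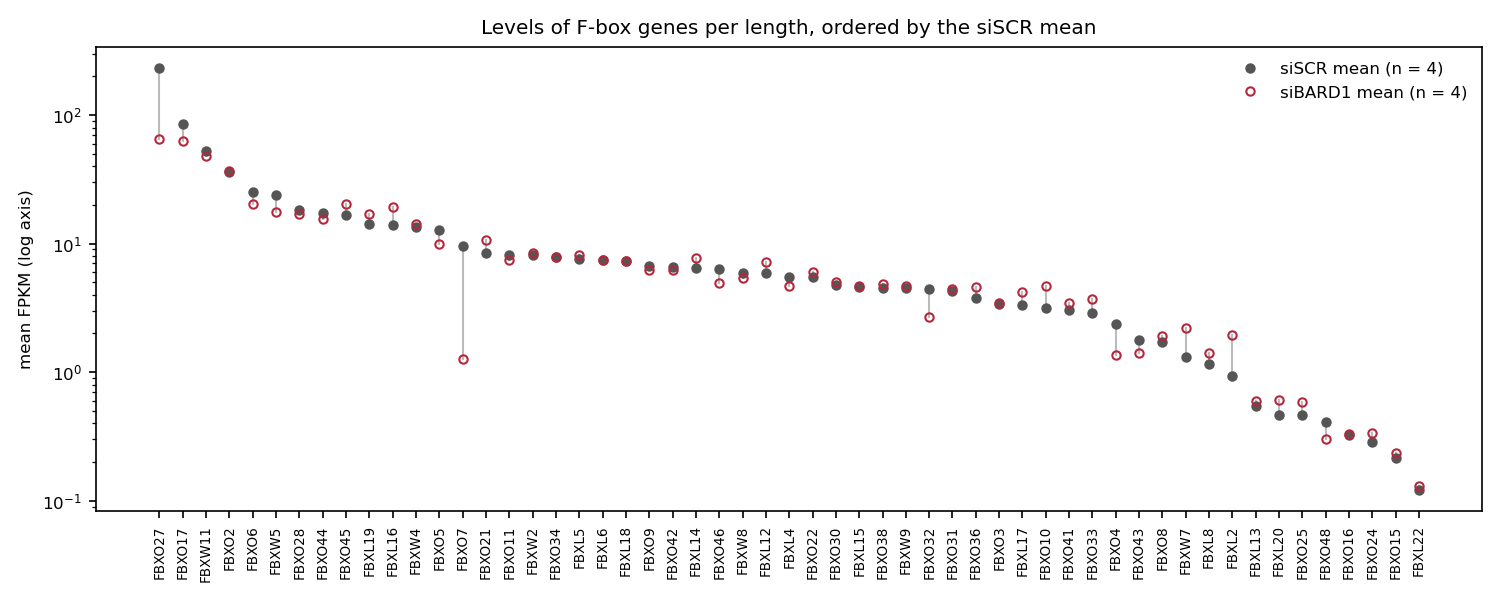
Mean FPKM (y axis, log scale) in siSCR (filled, n = 4) and siBARD1 (open, n = 4) of 55 F-box genes with a siSCR mean of at least 0.1 FPKM, ordered by the siSCR mean. FBXO27 drops from 232.0 to 64.7 FPKM and FBXO7 from 9.57 to 1.26 FPKM, while most pairs of points nearly coincide on this axis.

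Other genes of the pathway are read against the same background, in which 38.9% of all genes tested and 43.5% of protein-coding ones were called, 18.9% of all higher and 20.0% lower. Of 11 genes for the SCF core and its E2 and co-acting enzymes, 2 rose, 2 fell and 7 did not pass, with a median log2 fold change of 0.01. The 4 calls are near the background share and no result about the core. CUL1 was at 117.6 ± 4.69 CPM (SD, n = 4) in siSCR and 118.3 ± 3.7 CPM (n = 4) in siBARD1, and RBX1 at 45.0 ± 5.64 and 45.8 ± 2.38 CPM. Neither passed the test, nor did SKP1 with a log2 difference of 0.06. The E2 gene UBE2D1 fell from 38.3 ± 2.11 to 23.7 ± 1.99 CPM and CKS1B, a cofactor of SKP2, fell from 133.0 ± 4.83 to 107.4 ± 10.1 CPM. UBE2D3 rose from 217.7 ± 9.49 to 249.9 ± 9.0 CPM and UBE2R2 from 163.6 ± 7.3 to 183.7 ± 3.0 CPM.

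Cullins are switched on by attachment of NEDD8, and the COP9 signalosome removes it. Of 13 tested genes for NEDD8 attachment and receptor exchange, 4 fell, 1 rose and 8 did not pass, again near the 38.9% called over all genes. UBA3, a subunit of the NEDD8 E1, fell from 56.2 ± 3.66 to 40.5 ± 1.6 CPM (n = 4 in each group) and the NEDD8 E2 gene UBE2M from 213.0 ± 15.1 to 165.9 ± 7.62 CPM. DCUN1D1 rose from 89.5 ± 5.54 to 103.2 ± 1.82 CPM. Of 10 COP9 signalosome genes 4 fell and none rose, with a median log2 fold change of -0.13 beside 0.0 for all genes, and with total-count scaling 3 fell. All 4 calls were lower, where 20.0% of all genes tested and 22.4% of protein-coding ones were called lower. In either direction 38.9% of all genes were called. Whether these genes differ from that background was not tested. COPS3 fell from 106.3 ± 5.41 to 87.1 ± 4.53 CPM and COPS8 from 77.7 ± 4.26 to 64.6 ± 4.84 CPM. Of 8 genes for other cullins and their RING partner, 2 rose: CUL5 from 130.2 ± 5.65 to 147.8 ± 4.93 CPM and CUL3 from 151.0 ± 3.41 to 167.5 ± 3.05 CPM.

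Of 9 tested F-box genes with other names, 4 rose, 1 fell and 4 did not pass, with a median log2 fold change of 0.13, where 18.9% of all genes were called higher and 20.0% lower. SKP2, the receptor for the CDK inhibitor p27, rose from 33.0 ± 1.12 to 47.7 ± 2.69 CPM (SD, n = 4 in each group), and the histone demethylase KDM2B from 40.9 ± 1.99 to 51.8 ± 2.66 CPM. KDM2A and CCNF also rose, by 0.18 and 0.19 on the log2 scale. NCCRP1, which also carries an FBA domain, fell from 2.96 ± 0.489 to 2.15 ± 0.278 CPM, a call lost in 11 of 19 alternatives. BTRC, the other β-TrCP gene, differed by 0.13 (edgeR adjusted p = 0.0862).

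Of 27 genes for known partners and substrates of F-box proteins, 7 rose, 10 fell and 10 did not pass, with a median log2 fold change of -0.01, where 38.9% of all genes and 43.5% of protein-coding ones were called. These values are of mRNA, while F-box receptors act on proteins. CDK6, which FBXO7 binds, rose from 182.3 ± 10.2 to 350.1 ± 22.7 CPM (SD, n = 4 in each group), and CDKN1C, the gene of the CDK inhibitor p57, from 4.09 ± 1.02 to 7.84 ± 2.44 CPM with overlapping libraries. CDKN1B, the gene of p27 and a substrate of SKP2, rose by 0.69 on the log2 scale. PSMF1, the gene of the FBXO7 partner PI31, differed by 0.01 (adjusted p = 0.857).

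Among substrates of FBXW7, MYC fell from 94.8 ± 4.57 to 58.4 ± 1.79 CPM, JUN fell by 0.42, NOTCH1 by 0.48 and CCNE1 by 0.54 on the log2 scale. MCL1 rose by 0.17, and CCNE2, the other cyclin E gene, differed by -0.31 and did not pass (edgeR adjusted p = 0.0734). The searched transcripts of MYC and NOTCH1 hold 2 copies each of CTACCAG. Those of JUN, CCNE1, CCNE2 and MCL1 hold 0. The part of FBXW7 or of the sequence in these changes was not tested. CDKN1A, the gene of p21, fell from 67.3 ± 6.79 to 42.9 ± 2.4 CPM. E2F1 fell by 0.60, NFKBIA by 0.57, RRM2 by 0.49, CDC20 by 0.42 and CCND1 by 0.21 on the log2 scale. CRY2 rose by 0.34, CDC25A by 0.36 and FZR1 by 0.14. IREB2, the gene of the FBXL5 substrate, differed by 0.21 and did not pass (adjusted p = 0.0552).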

How the data were processed

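The authors deposited whole-number read counts per gene and FPKM values per gene, in a column for each library. The FPKM were counts over gene length and library total, times a constant for each library. That constant was 0.9929 to 1.0307 in siSCR and 0.9696 to 0.983 in siBARD1. The tools fastp, HISAT2 (2.0.5) and featureCounts are named in the submitters' processing notes. Those notes name GRCh37 and hg19, but all 58735 genes in the tables have the starts, ends and strands of GENCODE 29 on GRCh38, and the build of the alignment is not settled. Strandedness is not stated in the labels. Totals were 17816547 to 28590710 counts per library.

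Counts of all genes, as deposited, were tested with edgeR 4.0.16 in R 4.3.3: filterByExpr defaults, TMM scaling and a quasi-likelihood fit of siBARD1 against siSCR, with Benjamini-Hochberg adjustment over all genes tested. Intervals are the log2 fold change with its standard error on a normal scale. CPM uses TMM-scaled totals. Alternatives used limma (3.58.1), DESeq2 (1.42.0), other scalings, filters and left-out libraries. The edgeR step was tested on simulated counts, with 50 genes changed at each of 4 sizes. It recovered 18% of 1.25-fold, 72% of 1.5-fold, 100% of 2-fold and 98% of 4-fold changes. Of 153 calls 9 were false. The simulation gave all genes the same spread and changed far fewer genes than were called here, so these shares need not hold for these data.

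Values by library are given for FBXO7, the 6 largest called changes in each direction, the 3 highest by mean FPKM, FBXW7, FBXO5 and FBXL5; other called F-box genes have log2 fold changes, and each list its 2 largest called changes each way. Other genes named were chosen after their values were seen. One F-box gene is counted but not reported by name here. The F-box genes and lists were chosen with earlier results of these data known.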

Additional observations from a re-analysis of the deposited data

Results flagged for a closer look

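In 2 of 34 groups of 4 libraries checked, 1 library lay far from the other 3 relative to the range of the group. Chance flags about 1 in 20 such groups. FBXW7 was at 28.6 CPM in siBARD1 replicate 3, against 23.4 to 23.5 CPM in the other 3 siBARD1 libraries. FBXL16 was at 76.6 CPM in siBARD1 replicate 5, against 78.1 to 78.3 CPM in the other 3.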

How the results depend on the processing

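21 of the 24 called F-box genes were called in each of 19 alternative fits, and FBXO44, FBXW11 and FBXL14 lost their call in some. No called F-box gene changed direction in any of them. Some genes that did not pass were called in alternatives. Among these, FBXO43 (log2 difference -0.34, edgeR adjusted p = 0.0512) was called with DESeq2. FBXO25 (0.34, adjusted p = 0.0526) and FBXO22 (0.13, adjusted p = 0.0622) were called with total-count or upper-quartile scaling. The number called was 21 to 26 when 1 library was left out (26 without siSCR replicate 1, the library that stood apart, and 21 without siSCR replicate 4), 27 with total-count or upper-quartile scaling, 25 with DESeq2 and 24 with limma-voom. At an adjusted p of 0.01 it was 20 and at 0.1 it was 31. Total-count scaling moved the median of all genes by 0.048 on the log2 scale. With the replicate number as a block, 27 F-box genes and 6604 of all genes were called, against 24 and 5946 without it. Deviations of same-numbered libraries correlated at 0.139, 0.129, 0.034 and -0.032 for replicates 1, 3, 4 and 5. Not every library correlated best with its own number. The labels do not say what the number marks, and whether same-numbered libraries share a batch is not settled by these values. Depth limits the genes with few counts: the SE reached 0.29 on the log2 scale in FBXO16 and FBXO24, so changes of that size were not detectable there.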

Other observations

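Genes near the chromosome 19 pair were read from the same fit, within 60000 bases of FBXO17 or FBXO27. ACP7, an acid phosphatase gene beside FBXO27, fell from 76.6 to 14.0 CPM (log2 fold change -2.46, SE 0.08, edgeR adjusted p = 1.37e-12). The mitochondrial ribosomal gene MRPS12 fell by 0.57, the deacetylase gene SIRT2 by 0.52 and NFKBIB, which encodes an inhibitor of NF-κB, by 0.26 on the log2 scale. SARS2 differed by -0.12 (adjusted p = 0.336) and CCER2, whose mean CPM was 0.358 with siSCR and 0.726 with siBARD1, by 1.01 (adjusted p = 0.0872), and neither passed. These genes were chosen for their position after the values of FBXO27 were known.

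8 genes with FBX symbols of other biotypes were left out of the 62. FBXL19-AS1, annotated opposite FBXL19, was the only one of the 8 that passed the filter, at 3.69 ± 0.77 CPM (SD, n = 4) in siSCR and 3.65 ± 0.543 CPM (n = 4) in siBARD1 (log2 difference -0.03, edgeR adjusted p = 0.913). FBXL21, a pseudogene in this annotation, and FBXW7-AS1 had 0 counts in all 8 libraries.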
